A study of Homo sapiens with 2 samples.

Results

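Keratins and other intermediate filaments, the desmosomes that anchor them, the plakins that link filaments to junctions, and proteins of the cornified envelope were examined in HEC1A, an established cell line from a human endometrial adenocarcinoma. The 38 genes were listed by name and role, but with earlier results of these data known. Shares of the members set beside those of all genes are therefore descriptions only. A gene was taken as measured where a probe set of the array carried its symbol and no other. This gave 35 of the 38 genes, out of 19775 genes represented in all. KRT17, KRT81 and KRT86 are not analysed here. RNA came from 2 stable derivatives of HEC1A, both grown with serum and without treatment. One was labelled EMP2 overexpression and the other carried a short hairpin RNA vector labelled as a knockdown of EMP2, epithelial membrane protein 2, a small membrane protein with several transmembrane passes. Each derivative was measured on 1 array, so there was no replicate and no test. Both groups were engineered and an unmodified HEC1A culture was not analysed here. Which of the vectors a difference belongs to therefore cannot be told apart. The labels do not say whether either line was 1 clone or a pool. All values are the deposited log2 expression values, and each difference is overexpression minus knockdown.

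Keratins form filaments only as pairs of a type I and a type II chain, and glandular epithelia such as endometrium carry mainly the simple pair KRT8 and KRT18 with KRT7 and KRT19, whereas KRT5, KRT15, KRT13 and KRT16 belong to stratified epithelia. The filaments end on desmosomes, in which cadherins (desmogleins and desmocollins) bind the neighbouring cell and plakoglobin, plakophilins and desmoplakin join the cadherin tails to keratin. In stratified epithelia, transglutaminases crosslink precursors such as involucrin and sciellin under the membrane into the cornified envelope.

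The largest differences were in envelope genes and ran in opposite directions. SCEL was far lower and TCHH far higher in the overexpressing cells. Among the filament and desmosome genes the differences were smaller. The keratins KRT19 and KRT8 and the desmosomal genes PKP2 and DSP were between 1.54-fold and 2.20-fold lower. On their brightest probe sets, all 7 desmosomal genes bright enough to count were below 0, against 49.7% of all genes that met the same brightness limit. The plakins apart from desmoplakin (DSP) and the lamin and vimentin filaments differed by less than 1.5-fold.

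Genes entered a count where 1 of their values was 6.40 or more, which is the median of all probe sets with 1 symbol on these arrays, and 26 of the 35 members did so. Of these, 5 were lower by 1.5-fold or more (DSP, KRT8, KRT19, PKP2 and SCEL) and 1 was higher by as much (TCHH). For comparison, 4.15% of the 12061 genes past the filter were that much lower and 4.97% that much higher. At 2-fold, 2 members were lower (PKP2 and SCEL) and 1 was higher, against 1.53% and 1.65% of all genes. By sign alone, 17 members were below 0, 8 were above and 1 was identical on both arrays, and over all genes 49.7% were below and 45.6% above. The median of the 26 members was -0.16 and that of all genes 0.00. SCEL and KRT15 reached the filter on the knockdown array alone, and TCHH and KRT5 on the overexpression array alone. As each entered only through the array where it is high, these counts lend no support to their differences.

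**Figure D1:**
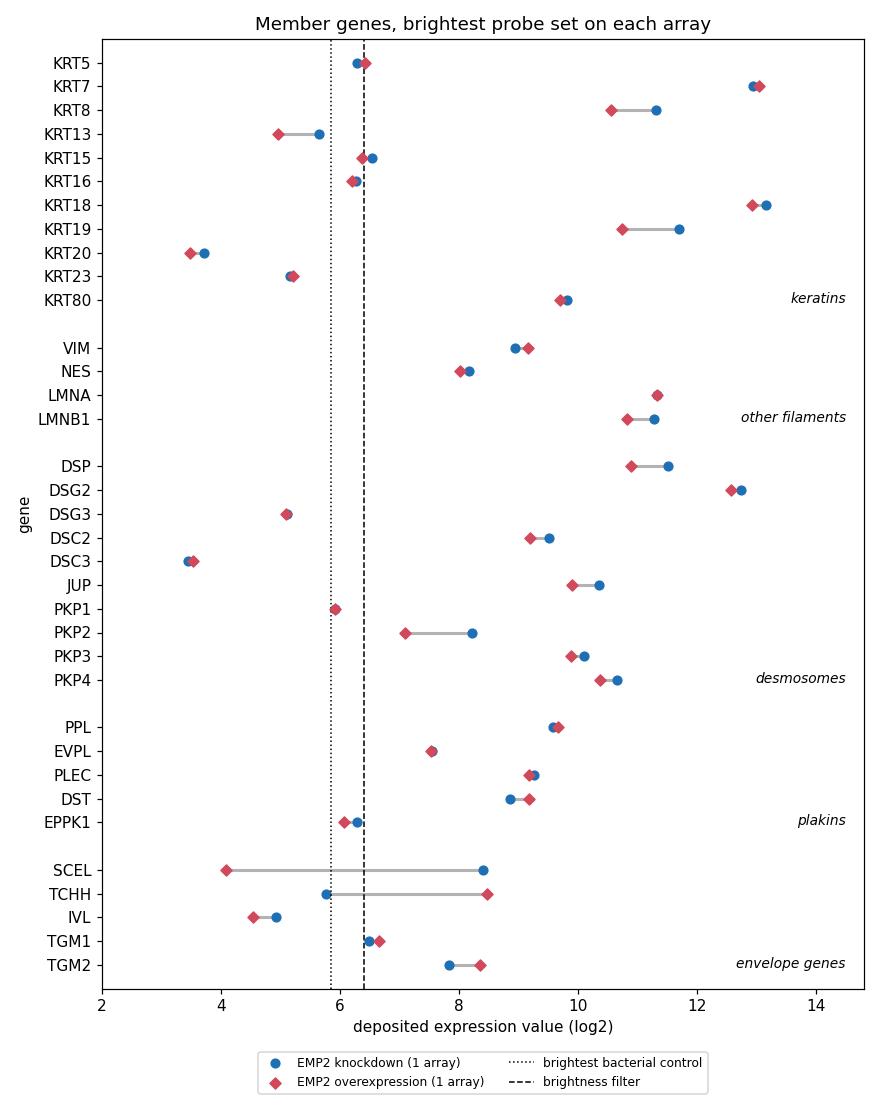
Deposited log2 value (x axis) of the brightest probe set of each of the 35 measured members (y axis, grouped by role), with a diamond for the EMP2 overexpression array and a circle for the EMP2 knockdown array, 1 array each; the dotted line is the brightest bacterial control (5.85) and the dashed line the brightness filter (6.40). SCEL and TCHH span the widest gaps and cross both lines, and the desmosomal genes to the right of the filter have their diamond left of their circle.

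The check of the labels gave a mixed picture. On its brightest probe set, EMP2 was at 12.25 with overexpression and at 9.51 with knockdown, 2.74 apart, while its other 3 probe sets differed by 0.00 to 0.39. Epithelial markers were above the filter on both arrays. EPCAM, an epithelial surface marker, read 13.13 and 13.12, PAX8, a factor of Mullerian epithelium, 11.26 and 11.33, and the mucin MUC1 8.13 and 7.83. E-cadherin (CDH1) was at 10.38 with overexpression and 9.31 with knockdown. Of the 11 measured markers of endothelium, leukocytes and fibroblasts, 5 were at or below the brightest of 27 bacterial control probe sets (5.85) on both arrays, among them the pan-leukocyte gene PTPRC. The fibroblast gene COL1A1, at 8.51 and 8.48, and the endothelial gene PECAM1, at 6.82 and 6.62, reached the filter, and the other 9 did not.

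Of 11 measured keratins 7 passed the filter, 2 were at least 1.5-fold lower, 0 were higher, and the median was -0.17. Among all genes past the filter, 4.15% were that much lower and 4.97% higher. The keratin median is the value of KRT15, which reached the filter on the knockdown array alone. KRT19, a type I keratin of simple epithelia that lacks the tail domain of other keratins, read 10.73 in overexpression and 11.70 in knockdown. It was thus lower by 1.96-fold (-0.97), and 1.67% of the genes counted were as low or lower. A second KRT19 probe set, too dim for the filter, read 5.51 and 5.90. KRT8, the type II keratin of simple epithelia, read 10.55 against 11.32, a difference of -0.77 or 1.70-fold, with 2.45% of genes as low or lower. Its partner KRT18 read 12.93 against 13.16, a difference of -0.23, so the filament pair was lower on both sides but only the type II chain by 1.5-fold. KRT8 and KRT18 were each measured by 1 probe set whose identifier ends in _x_at, the manufacturer's mark for probes that can match other transcripts. KRT7, the other type II keratin of glandular cells, read 13.05 against 12.95. Its second probe set past the filter differed by -0.11, so no direction held for KRT7. KRT80, a widely expressed type II keratin, read 9.69 against 9.82.

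The members KRT5, KRT13, KRT15 and KRT16, keratins of stratified epithelia, were near or below the filter on both arrays. KRT5, the basal type II keratin, read 6.42 and 6.29 and KRT15, a basal type I keratin, 6.37 and 6.54, which placed both just inside the filter. KRT16, a keratin of stressed and wounded epidermis, read 6.21 and 6.27 and fell just outside. KRT13, a suprabasal keratin of mucosa, read 4.96 and 5.65. KRT20, of gut and urothelium, read 3.47 and 3.72, and KRT23, a type I keratin, read 5.20 and 5.16. The values of KRT13, KRT20 and KRT23 were at or below the brightest bacterial control on both arrays, so no fold is given for them.

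Of the other filament genes, all 4 passed the filter and none differed by 1.5-fold, with a median of -0.07. Vimentin (VIM), the filament of mesenchymal cells that many carcinoma lines also carry, read 9.16 with overexpression against 8.94 with knockdown, 0.22 apart. Nestin (NES), a filament of progenitor cells, read 8.02 against 8.16. LMNB1, the B-type lamin bound to the inner nuclear membrane, read 10.83 against 11.27 and had the largest difference of the group, -0.44. LMNA, which encodes the A-type lamins, read 11.33 on both arrays with its brightest probe set. The other 4 LMNA probe sets past the filter differed by 0.39, 0.29, 0.20 and -0.02, so the identical pair was not shared by all of them. Identical values on both arrays were found for 14.6% of all probe sets.

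Among the desmosomal genes 7 of 10 passed the filter. On their brightest probe sets all 7 were lower in overexpression, 2 of them by 1.5-fold or more, and the median was -0.32. Of all genes past the filter, 49.7% were below 0 and 4.15% at least 1.5-fold lower. PKP2, a plakophilin of simple epithelia and heart, read 7.08 with overexpression and 8.22 with knockdown. This is 2.20-fold lower (-1.14), and 1.23% of genes were as low or lower. Its second probe set, below the brightest bacterial control, read 4.99 and 4.90 and did not show this. DSP, desmoplakin, the plakin that ties keratin to the plaque, read 10.89 against 11.51. The difference of -0.62, or 1.54-fold, lay just past the 1.5-fold limit, and 3.71% of genes were as low or lower.

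The remaining desmosomal genes differed by less than 1.5-fold. JUP, which encodes plakoglobin, the armadillo protein that binds the cadherin tails, read 9.89 against 10.35, a difference of -0.46. DSC2, the desmocollin of simple epithelia, read 9.19 against 9.51, and the 3 probe sets bright enough for the filter were all below 0. The remaining DSC2 probe set, below the brightest bacterial control, read 5.74 against 5.28 and went the other way. DSG2, the matching desmoglein, read 12.57 against 12.74, but its second probe set differed by 0.06. PKP4, which also occurs at adherens junctions, read 10.38 against 10.65, and PKP3, the plakophilin found in most epithelia, 9.88 against 10.10. Both PKP3 probe sets past the filter were below 0, as were 2 of the 3 for PKP4, whose other one was identical on both arrays. The 3 isoforms typical of stratified epithelia were dim, with DSG3 at 5.10 and 5.11, DSC3 at 3.53 and 3.44, and PKP1 at 5.91 on both arrays.

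The plakins apart from desmoplakin showed little difference. Of 5 measured, 4 passed the filter, 2 of these were above 0 and 2 below, none differed by 1.5-fold, and the median was 0.02. Periplakin (PPL) read 9.66 in overexpression and 9.58 in knockdown and envoplakin (EVPL) 7.52 and 7.55. These partners form a scaffold beneath the envelope. Plectin (PLEC), which links filaments to hemidesmosomes and to other parts of the cytoskeleton, read 9.18 and 9.26. DST, which encodes the dystonin isoforms including the hemidesmosomal antigen BPAG1-e, had the largest difference of the group. It read 9.17 against 8.85, a difference of 0.32, and its second probe set past the filter differed by 0.36. EPPK1, epiplakin, read 6.07 and 6.29, outside the filter.

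**Figure D2:**
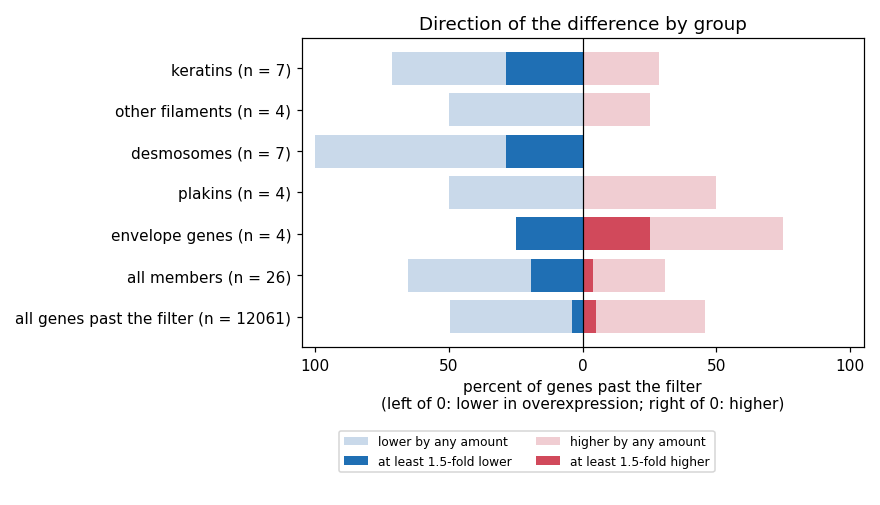
Percent of genes past the filter (x axis) that were lower (left of 0) or higher (right of 0) in the EMP2 overexpression array than in the EMP2 knockdown array, by group (y axis), with dark bars for at least 1.5-fold and pale bars for any amount; 1 array per group, no error bars. All 7 desmosomal genes lie left of 0, the 4 plakins split evenly, and the bottom bar gives the 12061 genes past the filter, of which 49.7% were lower by any amount.

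Of the 5 envelope genes 4 passed the filter, SCEL far lower, TCHH far higher and the transglutaminases under 1.5-fold on their brightest probe sets. The group's median of 0.34 and mean of -0.23 differ in sign and describe none of its members. SCEL encodes sciellin, an envelope precursor of stratified epithelia. It read 4.09 with overexpression and 8.40 with knockdown, a measured difference of -4.32. The overexpression value was below the brightest bacterial control, so SCEL was at least 5.88-fold lower. A second SCEL probe set past the filter read 3.34 against 7.07, at least 2.32-fold lower. The remaining pair was too dim to count, at 3.84 against 5.78 and at 2.43 against 2.20. Both probe sets that reached the filter did so on the knockdown array alone, so their shared direction follows from how they entered.

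TCHH encodes trichohyalin, a protein that crosslinks to keratin filaments in hair follicles and in some other hard epithelia. On its only probe set it was at 8.47 with overexpression and at 5.77 with knockdown, a measured difference of 2.71. The knockdown value was below the brightest bacterial control, so TCHH was at least 6.17-fold higher. TGM2, the widely expressed tissue transglutaminase, read 8.35 against 7.83, a difference of 0.52. Its other probe sets past the filter read 7.84 against 7.15 and 7.30 against 6.47, which were 1.61-fold and 1.78-fold higher. TGM2 was thus under 1.5-fold on its brightest probe set and over it on the other 2 past the filter. Both of those have identifiers ending in _x_at, as for KRT8 and KRT18. The remaining TGM2 probe set, too dim for the filter, read 6.11 on both arrays. TGM1, the transglutaminase of keratinocytes, read 6.65 and 6.49. Involucrin (IVL), an early envelope precursor, read 4.53 and 4.93, within the range of the bacterial controls.

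**Figure D3:**
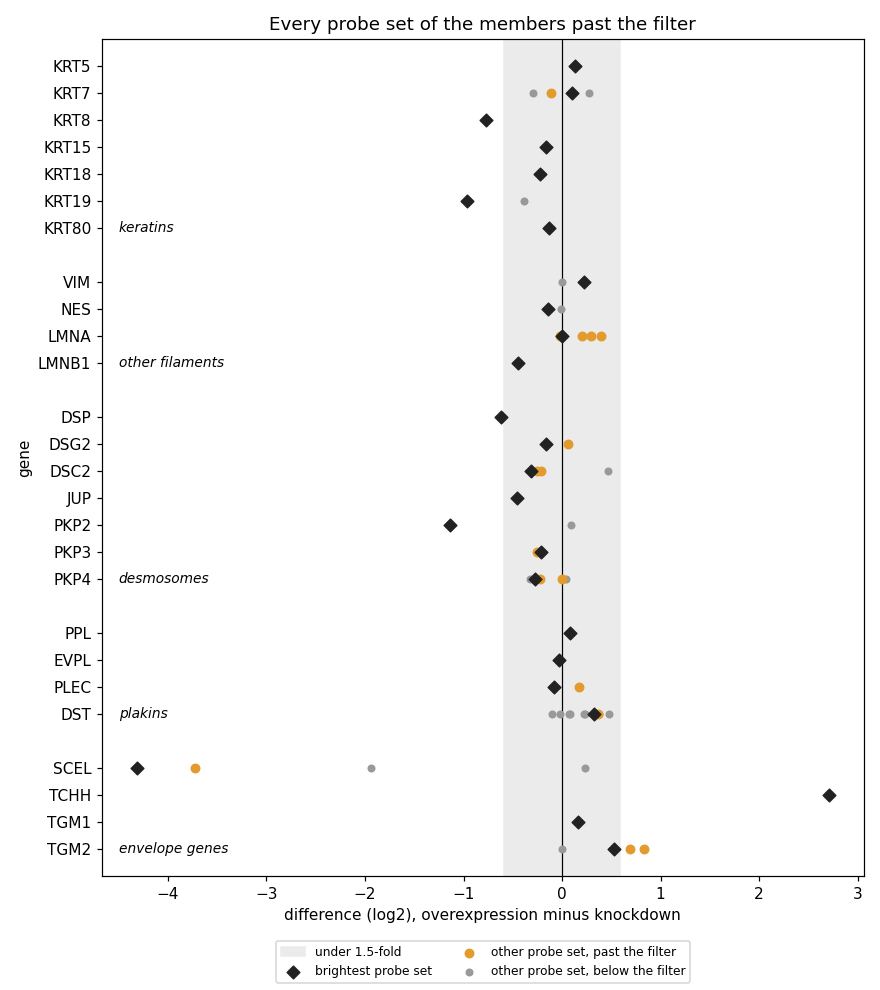
Difference in log2 units, EMP2 overexpression minus EMP2 knockdown (x axis), for every probe set of the 26 members past the filter (y axis), with a diamond for the brightest probe set and circles for the others; the grey band marks under 1.5-fold. SCEL has 2 probe sets past the filter far left of the band, while PKP2 has a single one past the filter at -1.14 and a dim one near 0.

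The sequences upstream of the start site are shown for the envelope genes that differed most, SCEL and TCHH, for involucrin, which was at background, and for desmoplakin as a contrasting desmosomal gene. The 250 bases before the start come from RefSeq (GRCh38.p14), in which 19 of the 38 listed genes were matched, with 27 start sites. Capitals mark, on either strand, TATAAA (the TATA box) and TGANTCA (the motif of the AP-1 factors) in the first 3 sequences and GGGCGG (the GC box) in the last. SCEL lies at chr13:77535456-77535705 (plus strand), TCHH at chr1:152115445-152115694 (minus strand), IVL at chr1:152908296-152908545 (plus strand) and DSP at chr6:7541421-7541670 (plus strand).
SCEL: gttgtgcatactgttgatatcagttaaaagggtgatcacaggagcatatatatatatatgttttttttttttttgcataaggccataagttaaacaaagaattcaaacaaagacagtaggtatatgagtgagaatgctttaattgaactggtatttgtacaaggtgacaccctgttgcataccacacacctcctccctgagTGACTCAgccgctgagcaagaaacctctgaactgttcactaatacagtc
TCHH: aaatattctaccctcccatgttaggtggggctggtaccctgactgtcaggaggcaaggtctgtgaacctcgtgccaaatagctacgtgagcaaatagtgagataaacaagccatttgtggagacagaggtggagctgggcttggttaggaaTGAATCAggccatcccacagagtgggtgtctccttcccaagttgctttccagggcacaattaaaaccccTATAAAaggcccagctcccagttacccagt
IVL: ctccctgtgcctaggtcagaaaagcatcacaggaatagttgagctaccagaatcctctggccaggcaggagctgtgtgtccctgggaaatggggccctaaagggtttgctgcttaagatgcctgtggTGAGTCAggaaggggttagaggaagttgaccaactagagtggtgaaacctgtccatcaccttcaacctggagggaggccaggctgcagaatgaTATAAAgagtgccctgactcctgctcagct
DSP: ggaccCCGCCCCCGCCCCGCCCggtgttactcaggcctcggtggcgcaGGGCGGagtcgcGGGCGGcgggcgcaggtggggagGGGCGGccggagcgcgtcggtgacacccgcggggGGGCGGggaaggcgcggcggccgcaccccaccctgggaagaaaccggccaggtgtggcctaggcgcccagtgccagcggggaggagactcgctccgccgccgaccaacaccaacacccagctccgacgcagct

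TGANTCA occurred in 3 of the 27 member promoters matched, those of the 3 envelope genes shown, and in none of the others. It lay 49 bases before the start in SCEL, 99 in TCHH and 123 in IVL. Of 35116 promoters of the same length, 6.57% held it. SCEL, TCHH and IVL thus shared these letters although one was lower, one higher and one at background. TATAAA was found in TCHH and IVL, each time 30 bases before the start, and in 10.7% of all promoters. DSP had neither, held GGGCGG 7 times with some copies sharing bases, and had a GC content of 78.0%, against 37.6% for SCEL. GGGCGG occurred in 15 of the 27 member promoters, from 11 genes, and in 42.6% of all promoters. These matches describe the letters in the window and do not show that a factor bound there.

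Further genes of the same pathways were taken from 5 lists of 113 genes, of which 95 were measured and 40 passed the filter. Of these 40, 5 were lower and 3 were higher by 1.5-fold or more, and the median was -0.04. For comparison with this and each list below, 4.15% of all genes past the filter were that much lower and 4.97% higher. Among the genes counted, KRT25, EHF, KRT222, SYNE1 and GFAP reached the filter only on the array where they are high. The counts therefore lend no support to their differences. Of 5 further desmosome and hemidesmosome genes past the filter, 2 were lower and none was higher. LAMB3, the beta chain of laminin-332 to which hemidesmosomes attach, read 8.78 in overexpression and 10.76 in knockdown, 3.94-fold lower on its only probe set. PERP, a tetraspan protein of desmosomes, was 2.53-fold lower (11.41 against 12.74) on its brightest probe set. Another PERP probe set, past the filter on both arrays, was 2.67-fold lower (9.34 against 10.76). A further PERP probe set read 5.84 against 6.87 and reached the filter on the knockdown array alone. Its direction therefore follows from how it entered. The remaining PERP probe sets, too dim for the filter, differed by 0 and -0.25. The hemidesmosomal integrin chains ITGA6 and ITGB4 differed by -0.16 and -0.21, and CD151, their tetraspanin partner, by 0.16.

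Of 33 further keratins measured, 22 were at or below the brightest bacterial control on both arrays and 7 passed the filter. KRT222, a keratin-like gene, read 6.52 against 5.45, at least 1.59-fold higher. KRT25, a keratin of the hair root sheath, read 5.81 against 6.54, at least 1.61-fold lower. Both passed the filter on one array only. KRT10, a suprabasal keratin of epidermis, read 11.82 against 12.10, and 3 of its 3 probe sets were under 1.5-fold. Of 18 further envelope genes measured, 11 were at or below the brightest bacterial control on both arrays. The 3 that passed the filter, SPRR4, CNFN and TGM5, differed by 0.06 to 0.15, so none of this list stood beside SCEL or TCHH in size among the genes counted.

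Of 13 further filament, spectraplakin and nuclear lamina genes past the filter, 1 was higher by 1.5-fold and 0 were lower. Their median was 0.01. SYNM, synemin, a filament protein that assembles with vimentin or desmin, read 9.32 against 8.63, 1.61-fold higher. MACF1, the spectraplakin related to DST, read 11.53 against 11.09, a difference of 0.45, and of the 7 MACF1 probe sets that reached the filter 6 were above 0. Of 12 factors of the epithelial and squamous programme past the filter, 2 were lower and 1 higher. EHF, an ETS factor of epithelia, read 4.74 against 8.91, at least 8.36-fold lower, on the single one of its 6 probe sets that passed the filter. That probe set reached the filter on the knockdown array alone, so the count lends no support to its difference. TFAP2A was 2.19-fold lower (7.12 against 8.25) and its relative TFAP2C 1.61-fold higher (7.96 against 7.28). Both are AP-2 factors active in keratinocytes. Their other probe sets, too dim for the filter, differed by 0.25 and 0.23 for TFAP2A and by 0.09 for TFAP2C. The grainyhead factor GRHL1 differed by 0.29, KLF4 by -0.10 and KLF5 by -0.33, though a second KLF5 probe set was lower by at least 1.5-fold.

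**Figure D4:**
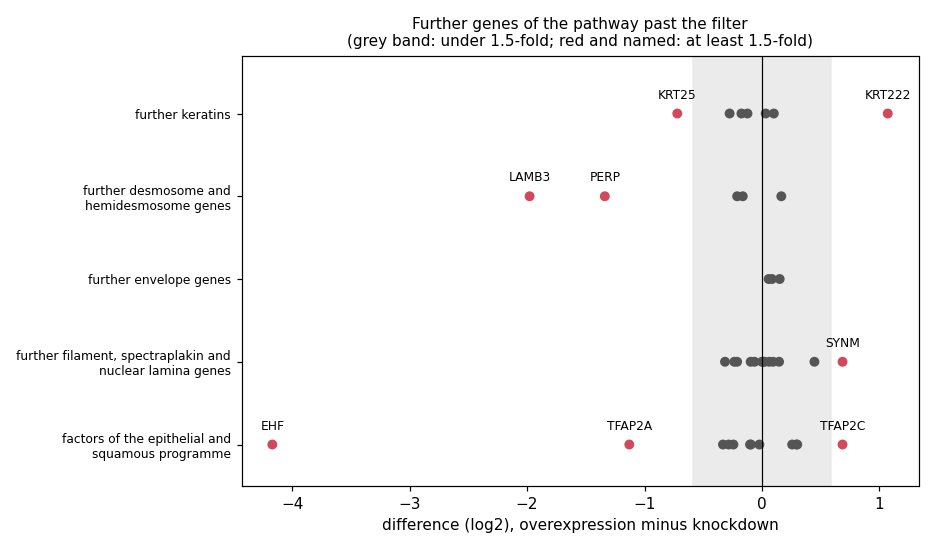
Difference in log2 units, EMP2 overexpression minus EMP2 knockdown (x axis), for the 40 genes of the 5 further lists that passed the filter (y axis, by list), on the brightest probe set and 1 array per group; the grey band marks under 1.5-fold and red named points lie outside it. EHF, LAMB3, PERP and TFAP2A lie furthest to the left, and the 3 further envelope genes all lie within the band.

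The counts depended on the probe sets. With all probe sets of a gene averaged, 3 members were lower by 1.5-fold and 1 higher, since PKP2 was then at -0.52 and the averaged SCEL, at -2.44, no longer reached the filter. Without probe sets marked as able to match several transcripts, 3 were lower. With 1 array per group, no difference has a replicate check, and a difference between cultures cannot be told apart from one due to EMP2.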

How the data were processed

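Expression was measured on 2 arrays, 1 per group. The labels' protocols name a Qiagen purification of total RNA and biotin labelling with an Affymetrix WT terminal labelling kit. Partek 6.6 is named in the submitters' processing notes. Of background correction, normalization and summarization, the method is not given in the sources used here. Each probe set has 1 deposited value per array on a log2 scale, with the base taken from the range of 2.01 to 14.72. The arrays had been brought to nearly one distribution (sorted values at most 0.05 apart), so a shift common to most genes would not be seen.

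The platform's annotation gave 1 symbol for 41097 of 54675 probe sets. A gene was represented by its probe set of highest mean over both arrays. Values were used as deposited, with no pseudocount, in Python 3.11.15. Where the lower value did not exceed the brightest of 27 Bacillus control probe sets (5.85), the fold is a lower bound against that value. Genes were counted at 1.5-fold and 2-fold, and no test was possible. The code was tested on simulated data. The genes named were all members, EMP2, cell type markers, and up to 6 genes past 1.5-fold in each further list; others of those lists, such as KLF5, and the chromosomal neighbours were picked with their values in view. The members and lists were chosen with earlier results of these data known.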

Additional observations from a re-analysis of the deposited data

How the results depend on the processing

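Of 132 member differences recomputed under probe set averaging, removal of probe sets whose identifiers end in _x_at or _s_at, median centring and quantile normalization, 57 moved at all. Median centring left all 35 as they were, since the median difference was 0, and averaging could not move the 17 members with 1 probe set. PKP2, at -0.52 with probe sets averaged, was the one value to cross the 1.5-fold limit. After the removal, 8 measured members, KRT8 and PKP2 among them, had no probe set left and no value. Averaging left 3 members lower by 1.5-fold and 0 by 2-fold, 3 further pathway genes lower and 1 higher, and an envelope median of 0.51. Removing the ambiguous probe sets left 3 members lower by 1.5-fold and 1 by 2-fold. With a filter at the 75th percentile 17 members remained, of which 3 were lower by 1.5-fold and 0 higher, and 0 were 2-fold lower or higher. Under it 3 further pathway genes were lower and 1 was higher. Without a filter the envelope median was 0.16. By the mean of members the keratins were at -0.29, the desmosomal genes at -0.46 and the envelope genes at -0.23. No paired analysis was possible because each group had 1 array. Signal over background limits KRT13, KRT20, KRT23, DSG3, DSC3 and IVL, which were at or below the brightest bacterial control on both arrays.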

Other observations

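The genes next to the members at least 1.5-fold apart were looked up in RefSeq gene order, taking the 5 nearest measured protein-coding genes on each side, a step chosen after the values were seen. SCEL, on chromosome 13, lies next to SLAIN1, a microtubule-associated protein gene, which was also lower, reading 5.54 in overexpression and 8.63 in knockdown on its only probe set, at least 6.85-fold. SLAIN1 reached the filter on the knockdown array alone. The RefSeq intervals of SCEL and SLAIN1 do not overlap. On the other side, MYCBP2 differed by -0.75, and all 6 neighbours of SCEL past the filter were below 0, from -3.08 to -0.05, with 2 of them at least 1.5-fold lower. Over all genes past the filter 49.7% were below 0 and 4.15% at least 1.5-fold lower, and neighbours were looked up only for members chosen by their difference. Of the 8 neighbours of DSP past the filter on chromosome 6, 3 were at least 1.5-fold lower, namely RREB1 (-1.21), TFAP2A (-1.13) and GCNT2 (-0.78), while the genes directly beside it, RIOK1 and SNRNP48, differed by -0.04 and -0.05. Of the 8 neighbours of PKP2 past the filter, 1 was higher (BICD1, 0.97) and 1 lower (ALG10, -0.61) by 1.5-fold or more, and of the 6 of KRT8 1 was lower (IGFBP6, -0.61).

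TCHH lies in the epidermal differentiation complex on chromosome 1. Its neighbours RPTN, FLG, FLG2, CRNN and CRCT1 differed by at most 0.07 and none passed the filter. All of these were at or below the brightest bacterial control on both arrays, so their small differences say nothing about expression there. Of the 10 neighbours of TCHH, 3 passed the filter, among them S100A10 and S100A11 on the other side, which differed by 0.08 and -0.15. KRT19 lies among type I keratin genes, and 0 of its 5 neighbours past the filter differed by 1.5-fold. CSTA, an envelope precursor and protease inhibitor, read 3.31 in overexpression and 5.15 in knockdown, both below the brightest bacterial control, so it has no fold.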
